A study of Arvicanthis niloticus with 7 samples.

Results

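Adenylate kinases move a phosphate between adenine nucleotides, turning a pair of ADP molecules into ATP and AMP, and so link the energy charge of a cell to AMP, the signal that AMP-activated protein kinase (AMPK) senses. The isoforms differ in where they act. AK1 is the cytosolic isoform, best known from skeletal muscle, brain and erythrocytes. AK3 sits in the mitochondrial matrix and passes phosphate from GTP to AMP. AK4, whose gene was formerly named *Ak3l1*, also sits in the matrix, is close in sequence to AK3 but a weak enzyme, and is known as a target of the hypoxia factor HIF-1 with high expression in kidney and liver.

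The genes examined were *Ak1*, *Ak3* and *Ak4*, 3 of the 16110 genes that the platform annotation names, with 4 of the 25697 probes of the array, 1 each for *Ak1* and *Ak4* and 2 for *Ak3*. They were chosen with values of these arrays already known. *Ak4* was picked for its small spread within groups, and under its older name it is among the genes that the study selected on the same arrays, so its difference between groups is given as a description with no test. The comparison held 3 PFJ arrays and 4 control arrays of male Nile rats (NRs, *Arvicanthis niloticus*), African grass rats that become diabetic on carbohydrate-rich food. From 3 weeks of age, all animals received a high-carbohydrate diet for 4 weeks. The diet of the PFJ group also held palm fruit juice (PFJ), an aqueous extract rich in phenolic acids, at 5.4 g of gallic acid equivalents per kg, while the control diet held none. RNA labelled as liver was hybridised to a mouse BeadChip, and transcripts of the NR that match a mouse probe poorly may therefore be read faintly or be missed. The labels do not name the animal behind each array, and p-values therefore measure only the spread between these samples. The RefSeq annotation of the NR genome lists 9 genes named *Ak1* to *Ak9*, of which 4 had a probe listed under that symbol.

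Between 4689 and 5137 probes per array were detected, that is, had a detection p under 0.01 against the negative controls of the array. All values below are log2 signals after background correction and quantile normalisation with the neqc function of limma, unless another scale is named. Control replicates 3 and 4 stood apart from the other arrays and went against their label. They correlated at r = 0.986 with each other and at 0.759 to 0.778 with the other 5 arrays, across 3734 tested genes, which are not independent replicates. Of 19 kidney tubule markers with a probe, 9 were detected on both of these arrays, against 3 on all PFJ arrays and 3 on both of control replicates 1 and 2, and 10, *Slc22a6*, *Aqp2* and *Kap* among them, were detected on no array. Their summed signal was 12.07 to 12.31 on the PFJ arrays, 12.19 to 12.50 on control replicates 1 and 2 and 17.41 to 17.42 on control replicates 3 and 4. The summed signal of 15 hepatocyte markers was 18.25 to 18.33 with PFJ, 18.17 to 18.23 on control replicates 1 and 2 and 13.03 to 13.34 on control replicates 3 and 4. These sums are of unlogged signals, so the brightest probes weigh most in them. The *Alb*, *Apoh* and *Fgb* probes were detected on no array. In tissue RNA of this kind, fewer cells of a type and less RNA per cell cannot be told apart. The differences of the detected adenylate kinase probes and of many, not all, other genes named are therefore also given without control replicates 3 and 4. This setting was chosen after these values were seen.

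The *Ak4* probe was detected on all 7 arrays, at 25.6 to 53.9 times the background of the array. Its log2 values were 12.21, 11.97 and 12.14 on PFJ replicates 1 to 3. On control replicates 1 to 4 they were 12.73, 12.75, 12.69 and 12.76. The PFJ arrays thus all lay below the control arrays, with a gap of 0.48 between the nearest values, and the 2 control arrays with kidney markers were level with the other 2. *Ak4* averaged 12.10 ± 0.12 on the PFJ arrays (SD, n = 3) and 12.73 ± 0.03 on the control arrays (SD, n = 4), a log2 difference of -0.63, or 35.2% less signal. Groups without overlap were found for 7.07% of the 3734 genes tested, 3.62% lower and 3.45% higher with PFJ. Without control replicates 3 and 4 the log2 difference was -0.64, about the same size, and 8.24% of 3543 genes then had all PFJ arrays below the controls. Some of the hepatocyte markers were level between these 5 arrays and others were not. *Ahsg* was at 16.01 to 16.08 on the PFJ arrays and at 16.07 and 16.04 on control replicates 1 and 2. *Hpx* was at 16.08 to 16.11 on the PFJ arrays and at 16.09 and 16.11 on those controls. Both genes lay near the top of the neqc scale. *Atp5g3*, a gene of ATP synthase named after its values were seen, was at 16.06 to 16.11 on all 7 arrays. Level values there cannot show that the hepatocyte part was equal. *Apoa1*, an apolipoprotein, was detected on all PFJ arrays, at 6.67 to 9.20, and not on control replicates 1 and 2, at 4.84 and 4.90, and *Ttr*, the thyroxine carrier transthyretin, was at 6.93 to 9.46 on the PFJ arrays and not detected at 5.42 and 5.36 on those controls. Of 10 tested hepatocyte markers, 8 had a positive difference without control replicates 3 and 4, with a median of 0.40. Over all 3543 genes, 1677 had a positive difference, with a median of -0.01. *Apoa1* and *Ttr* are among the 8 and were tested only because they were detected on the PFJ arrays, where they were higher. The part of the hepatocyte markers in the *Ak4* difference was not tested.

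**Figure D1:**
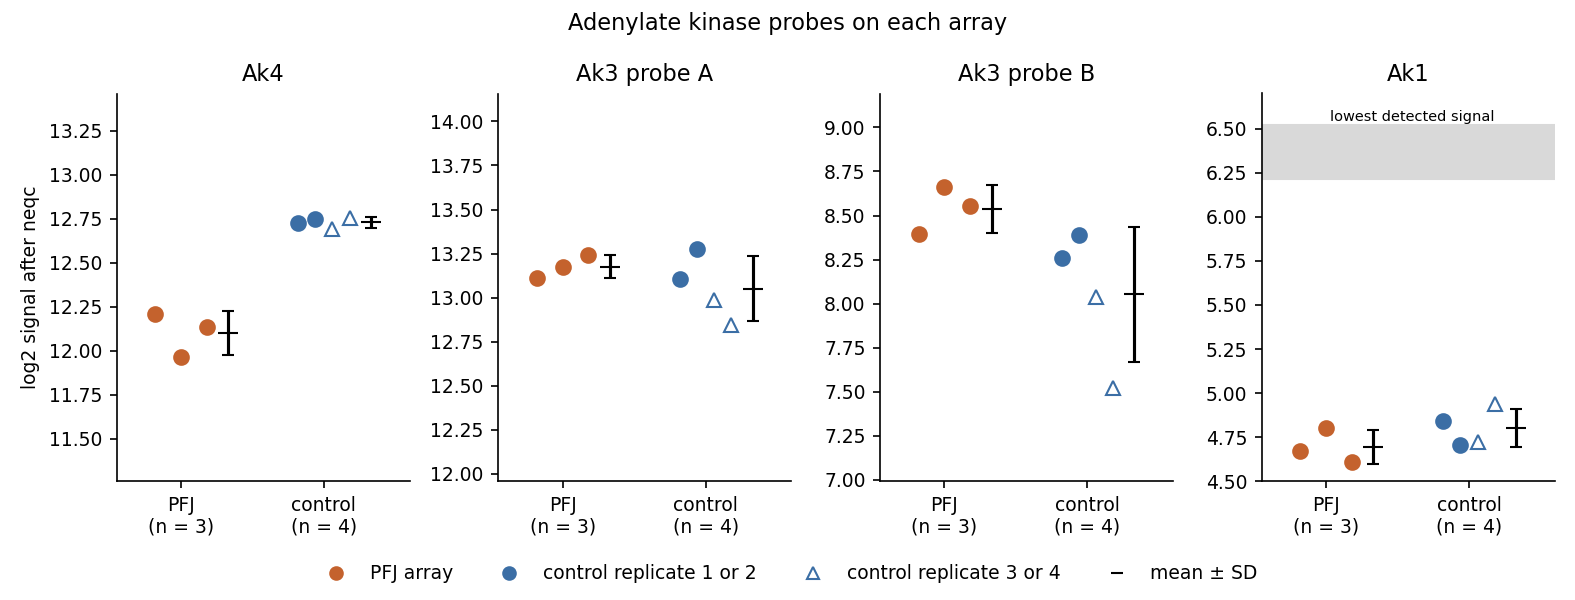
Log2 signal (y axis, neqc scale, the same span in each panel) of the *Ak4*, *Ak3* and *Ak1* probes on the PFJ and control arrays, with the mean and SD of each group in black; open triangles are control replicates 3 and 4, and the grey band is the range of the lowest detected signal per array. The PFJ arrays lie below every control array for *Ak4*, the groups overlap for *Ak3* probe A and nearly meet for probe B, and *Ak1* lies below the detection range on all arrays.

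The separation of the *Ak4* groups did not depend on the scale, whereas the small spread did. On the signals as deposited, before any normalisation, *Ak4* had 5020, 4356 and 3653 units with PFJ and 7166, 6735, 8110 and 6646 units in controls. With the normalised values of the authors it averaged 4356 ± 459 units with PFJ (SD, n = 3) and 6477 ± 737 units in controls (SD, n = 4), a ratio of 0.673. The groups did not overlap on either scale, nor when the arrays were scaled to equal medians. The SD of the log2 values in controls, however, was 0.03 on the neqc scale, 0.09 with equal medians, 0.13 before normalisation and 0.16 with the values of the authors. Control replicates 3 and 4 were on average 0.01 below replicates 1 and 2 on the neqc scale and 0.26 below them with the values of the authors, but 0.04 above them with equal medians and 0.08 above them before normalisation. How level *Ak4* was across the control arrays was thus a property of the scaling as well as of the probe.

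On the neqc scale the pooled SD of *Ak4* within groups was 0.0823, against a median of 0.42 over all tested genes, and 0.509% of them had a smaller one. The spread was unequal between the groups. The control SD of *Ak4* ranked 6 of 3734 from the smallest, while its PFJ SD ranked 561. Without control replicates 3 and 4, the pooled SD was 0.105 against a median of 0.278, and 7.23% of 3543 genes had a smaller one. Of the 20 tested genes with a pooled SD no larger than that of *Ak4*, itself included, 3 had all PFJ arrays below the controls, namely *Ak4*, *Notch4* and *Wbp11*, and 2 had them all above, *Cir1* and *Rps3*. These 5 were named after their values were seen, and the cut at the SD of *Ak4* uses the value that chose the gene. That the absolute difference of *Ak4* was the largest among them is therefore only a description.

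**Figure D2:**
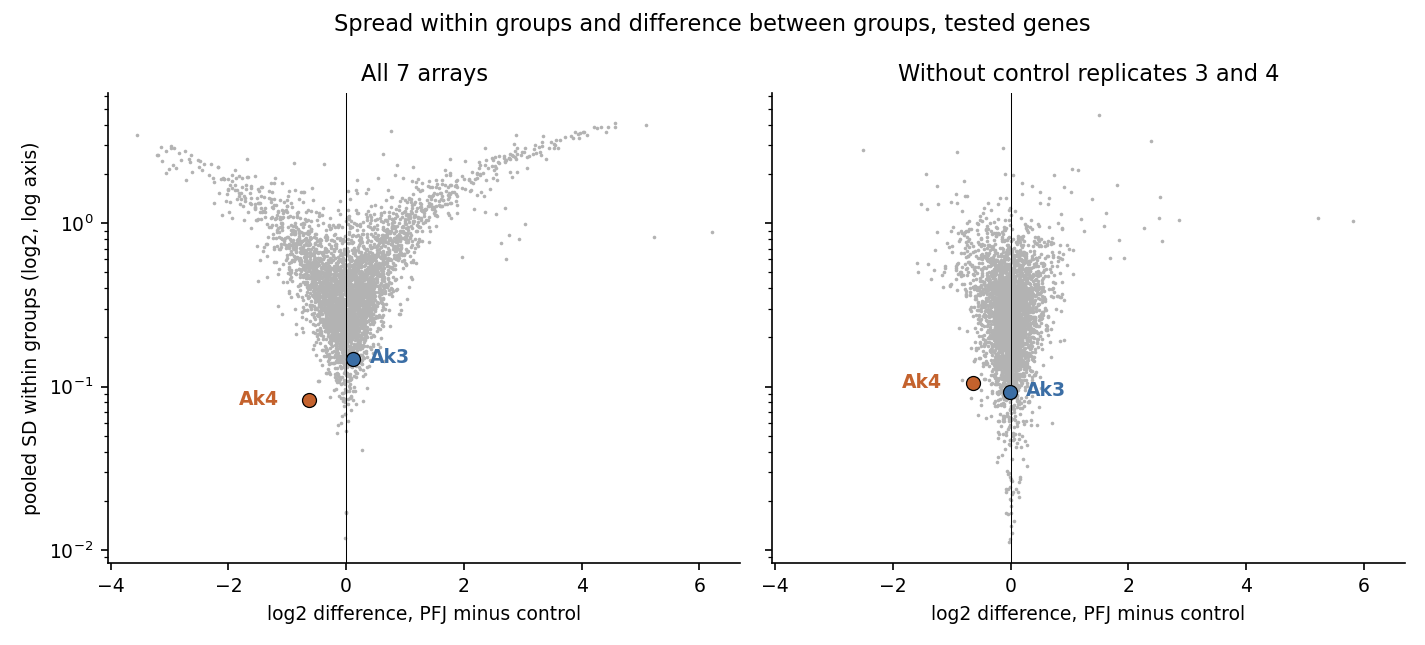
Pooled SD within groups (y axis, log scale, log2 units) against the log2 difference of PFJ minus control (x axis) for each tested gene (grey), with *Ak4* and *Ak3* marked, on all 7 arrays and without control replicates 3 and 4; the panel without them shows the genes tested in both fits. *Ak4* lies at -0.63 with an SD of 0.0823 on all arrays and at -0.64 with an SD of 0.105 without these 2 arrays, while *Ak3* lies near 0 in both.

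*Ak3* gave a different picture. The probe that stands for the gene in the fit, called probe A here, was 52.5 to 73.6 times above background and had values of 13.11, 13.17 and 13.24 on PFJ replicates 1 to 3. On control replicates 1 to 4 the values were 13.11, 13.27, 12.98 and 12.84. The groups overlapped, and the lowest values were those of control replicates 3 and 4, the arrays with kidney markers, whose part in the result was not tested. *Ak3* averaged 13.17 ± 0.07 on the 3 PFJ arrays (SD) and 13.05 ± 0.18 on the 4 controls (SD). The log2 difference was 0.12 (standard error 0.18, 95% interval -0.31 to 0.56, adjusted p = 0.753 from limma over 3734 genes). This interval allows folds between 0.807 and 1.47, so these arrays leave room for a moderate difference in either direction. Without control replicates 3 and 4 the sign turned, with a log2 difference of -0.02 (95% interval -0.47 to 0.44, adjusted p = 0.999 from limma).

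The second *Ak3* probe, probe B, is annotated to the same transcript and was detected on all arrays, at 2.49 to 3.8 times background. It read 8.40, 8.66 and 8.55 on the PFJ arrays, against 8.26, 8.39, 8.04 and 7.52 on control replicates 1 to 4. The lowest PFJ array was barely above the highest control array on this scale, and both *Ak3* probes had their lowest values on control replicates 3 and 4 here. This did not hold on every scale. Before normalisation, control replicate 3 was the highest control for both probes, at 9818 units for probe A and 496 units for probe B, and control replicate 4 the lowest, at 7031 and 331 units. In a fit of all 5048 detected probes, the log2 difference of probe B was 0.48 (standard error 0.25, 95% interval -0.11 to 1.08, adjusted p = 0.564 from limma). Groups without overlap made up 3.47% of these probes in this direction and 3.55% in the other. For probe B they did overlap with the values of the authors, with equal medians and before normalisation. Its log2 difference without control replicates 3 and 4 was 0.21 (adjusted p = 0.999 from limma). Across the 7 arrays the values of probes A and B had a Pearson r of 0.9, given as a description of probes that share the same arrays.

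Since *Ak4* and *Ak3* were read on the same arrays, their log2 difference within an array does not carry a scaling factor common to all probes. Quantile normalisation also changes signals by amounts that depend on their level, and this difference does not remove that. With probe A, *Ak4* minus *Ak3* was -0.90, -1.21 and -1.10 on PFJ replicates 1 to 3. On control replicates 1 to 4 it was -0.38, -0.52, -0.30 and -0.09. Every PFJ array was below every control array. The mean was -1.07 ± 0.15 on the 3 PFJ arrays (SD) and -0.32 ± 0.18 on the 4 controls (SD), and the shift between groups was -0.75 on the neqc scale and with the values of the authors. With probe B the shift was -1.11 on the neqc scale and -0.94 with the values of the authors, again without overlap. Against control replicates 1 and 2 alone, the shift was -0.62 with probe A and -0.85 with probe B. These shifts contain the *Ak4* values that chose the gene and are given without a test. They show unequal differences of the probes between the groups, not that *Ak3* was unchanged.

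**Figure D3:**
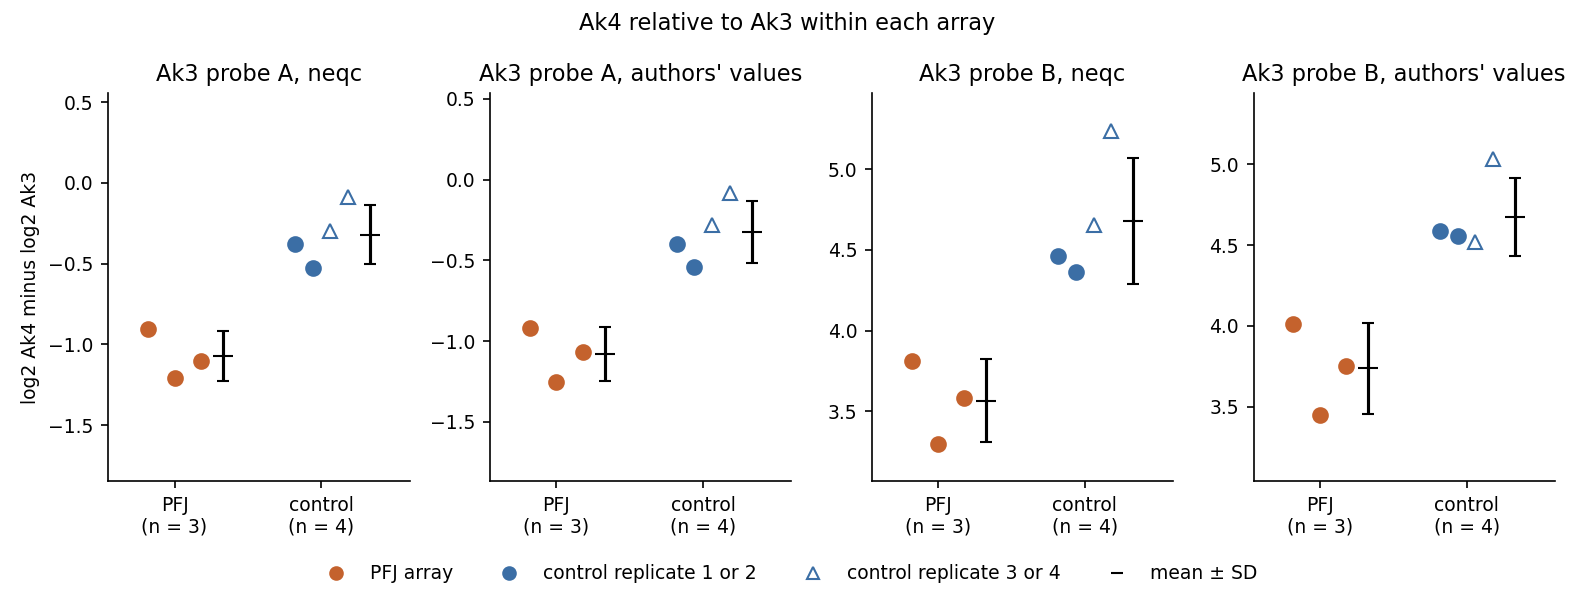
Log2 signal of *Ak4* minus that of *Ak3* within each array (y axis, the same span in each panel) for *Ak3* probes A and B on the neqc scale and with the normalised values of the authors; black marks are mean and SD, open triangles control replicates 3 and 4. The PFJ arrays lie below all control arrays in the 4 panels.

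*Ak1* gave no usable signal. Its probe was detected on 0 of 3 PFJ arrays and 0 of 4 control arrays, with detection p-values of 0.6416 to 0.9687 with PFJ and of 0.4211 to 0.8321 in controls. Its signal was 0.836 to 0.959 times background with PFJ and 0.897 to 1.02 times background in controls. No fold is given between groups that are both at background, and the signal says nothing on whether NR *Ak1* RNA was present, since a mouse probe may miss it. Of the skeletal muscle markers, 6 of 8 with a probe were not detected on any array. Of 4 erythroid markers with a probe, 1 was not detected on any array, and the others differed in pattern. *Alas2*, which starts heme synthesis in erythroid cells, was detected on all 7 arrays, at 13.83 to 14.53 with PFJ. It was at 13.68 and 14.45 on control replicates 1 and 2 and lower, at 10.10 and 10.56, on control replicates 3 and 4. *Slc4a1* went the other way among the controls, detected on control replicates 3 and 4 and not on 1 and 2. It was detected on 2 of 3 PFJ arrays, and *Hba-a1* on 1 PFJ array and no control array. Of the 6 other adenylate kinase genes, only *Ak6*, which encodes a nuclear isoform, had a probe listed, and it was at background on every array, with detection p-values of 0.2494 to 0.8797 with PFJ and 0.3095 to 0.4749 in controls. The comparison of isoforms thus rests on *Ak3* and *Ak4*, both of the mitochondrial matrix.

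Other genes of nucleotide balance and 22 HIF-1 targets were taken as lists that follow their roles. Of these 74 genes, 61 had a probe and 22 were detected on at least 3 arrays and tested, while 33 were detected on no array and 6 on 1 or 2. At an adjusted p under 0.05 from limma, 0 of the 22 passed, as did 0 of all 3734 genes, which is 0%. At an unadjusted p under 0.05, 0 of the 22 were higher and 0 lower, where 4.77% of all genes passed, 2.17% higher and 2.6% lower with PFJ. Without control replicates 3 and 4, 0 of the role genes tested passed at this threshold, where 2.79% of all genes did, 1.35% higher and 1.44% lower. The 22 genes had a median log2 difference of -0.10, with 10 above and 12 below 0, beside a median of 0.03 for all tested genes.

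Among the other nucleotide kinases, some genes had values on control replicates 3 and 4 far from those on the other arrays. *Cmpk1*, which phosphorylates UMP and CMP, was the 1 gene of 4 nucleoside monophosphate kinases that was tested, and averaged 6.53 ± 1.12 on the PFJ arrays against 6.46 ± 0.85 on the controls. The log2 difference of *Cmpk1* was 0.07 on all arrays and -0.55 without control replicates 3 and 4. *Cmpk1* was detected on 2 of 3 PFJ arrays and 3 of 4 controls. Its undetected values, 5.32 on PFJ replicate 3 and 5.35 on control replicate 4, enter these differences. All 6 listed genes of the nucleoside diphosphate kinase family, known for passing phosphate from nucleoside triphosphates to nucleoside diphosphates, were tested. Of them, 3 had a positive and 3 a negative difference, with a median of 0.18, which was 0.14 without control replicates 3 and 4. *Nme6* had the lowest p of them, with a log2 difference of 0.89 (standard error 0.44, adjusted p = 0.561 from limma) that was 0.21 without control replicates 3 and 4. *Nme7*, named after its values were seen, had 10.11, 9.94 and 10.30 on the PFJ arrays, against 9.98, 9.58, 5.20 and 5.48 on control replicates 1 to 4, and was not detected on the last 2. *Ckb*, the brain-type creatine kinase, read 10.66, 9.77 and 10.71 on the PFJ arrays, against 10.28, 10.26, 15.62 and 15.02 on control replicates 1 to 4. The log2 difference of *Ckb* was -2.42 on all arrays and 0.11 without control replicates 3 and 4. *Ak4* did not show a split of this size between the control arrays on any scale. On the neqc scale this also held for other genes, *Nme3* among them, named after its values were seen. The log2 difference of *Nme3* was 0.47 on all arrays and 0.42 without control replicates 3 and 4.

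In the mitochondrial matrix, *Suclg1* and *Suclg2* encode subunits of succinate-CoA ligase, of which the SUCLG2 form makes GTP, the phosphate donor of AK3. *Suclg2* had a log2 difference of -0.40 (standard error 0.27) and *Suclg1* one of -0.20 (standard error 0.53), neither past the threshold. The log2 difference of *Suclg2* was -0.14 without control replicates 3 and 4, while that of *Suclg1* turned positive, at 0.57. Of 4 tested carriers of adenine nucleotides, 3 had a positive and 1 a negative difference, with a median of 0.46, which was 0.01 without control replicates 3 and 4. *Slc25a24*, a carrier of ATP-Mg and phosphate, had the lowest p of them, with a log2 difference of 0.38 that was 0.27 without control replicates 3 and 4, and averaged 8.45 ± 0.33 on the 3 PFJ arrays (SD) and 8.08 ± 0.23 on the 4 controls (SD). The log2 difference of *Slc25a5*, an ADP/ATP translocase, was -0.21 on all arrays and 0.11 without these controls. *Slc25a5* was at 15.46 ± 0.02 on the 3 PFJ arrays (SD) and 15.67 ± 0.38 on the 4 controls (SD).

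AMP sensing and removal were poorly covered. Of 11 genes of AMPK and its upstream kinases, *Camkk2* and *Stk11* were tested. *Camkk2*, a calcium-dependent AMPK kinase, had a log2 difference of -0.46 (standard error 0.42, adjusted p = 0.616 from limma), and *Stk11*, which encodes the AMPK kinase LKB1, one of -0.10 (standard error 0.35). These were -0.78 for *Camkk2* and -0.17 for *Stk11* without control replicates 3 and 4. *Camkk2* was detected on 2 of 3 PFJ and 4 of 4 control arrays, and *Stk11* on 2 of 3 PFJ and 1 of 4 control arrays. Their differences thus rest in part on undetected signals. No catalytic, scaffold or regulatory AMPK subunit with a probe was tested, and 0 of 10 genes of AMP and adenosine removal were. Of 22 HIF-1 target genes other than *Ak4*, 6 were tested, 3 with a positive and 3 with a negative difference and a median of 0.04, which was -0.08 over the 5 tested without control replicates 3 and 4. *Vegfa*, the endothelial growth factor, had a log2 difference of 0.24 on all arrays and 0.22 without these controls, and was at 13.47 ± 0.11 on the 3 PFJ arrays (SD) and 13.23 ± 0.30 on the 4 controls (SD). *Aldoa*, an aldolase of glycolysis, had the lowest p of the list, with a log2 difference of -1.38 (standard error 0.77) that was -0.08 without control replicates 3 and 4. *Ndrg1*, named after its values were seen, was at 7.83 to 8.88 with PFJ, at 7.88 and 8.28 on control replicates 1 and 2 and at 15.76 and 15.83 on control replicates 3 and 4. On the neqc scale both *Aldoa* and *Ndrg1* thus had a split between control arrays that *Vegfa*, like *Ak4*, lacked. *Ldha* and *Mxi1*, named after their values were seen, split too. *Ldha* was at 14.90 and 15.07 on control replicates 1 and 2 and at 13.38 and 13.35 on 3 and 4. *Mxi1* was at 11.97 and 11.84, then at 11.04 and 10.56. With the values of the authors, *Ak4* was 0.26 lower on control replicates 3 and 4 than on 1 and 2.

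**Figure D4:**
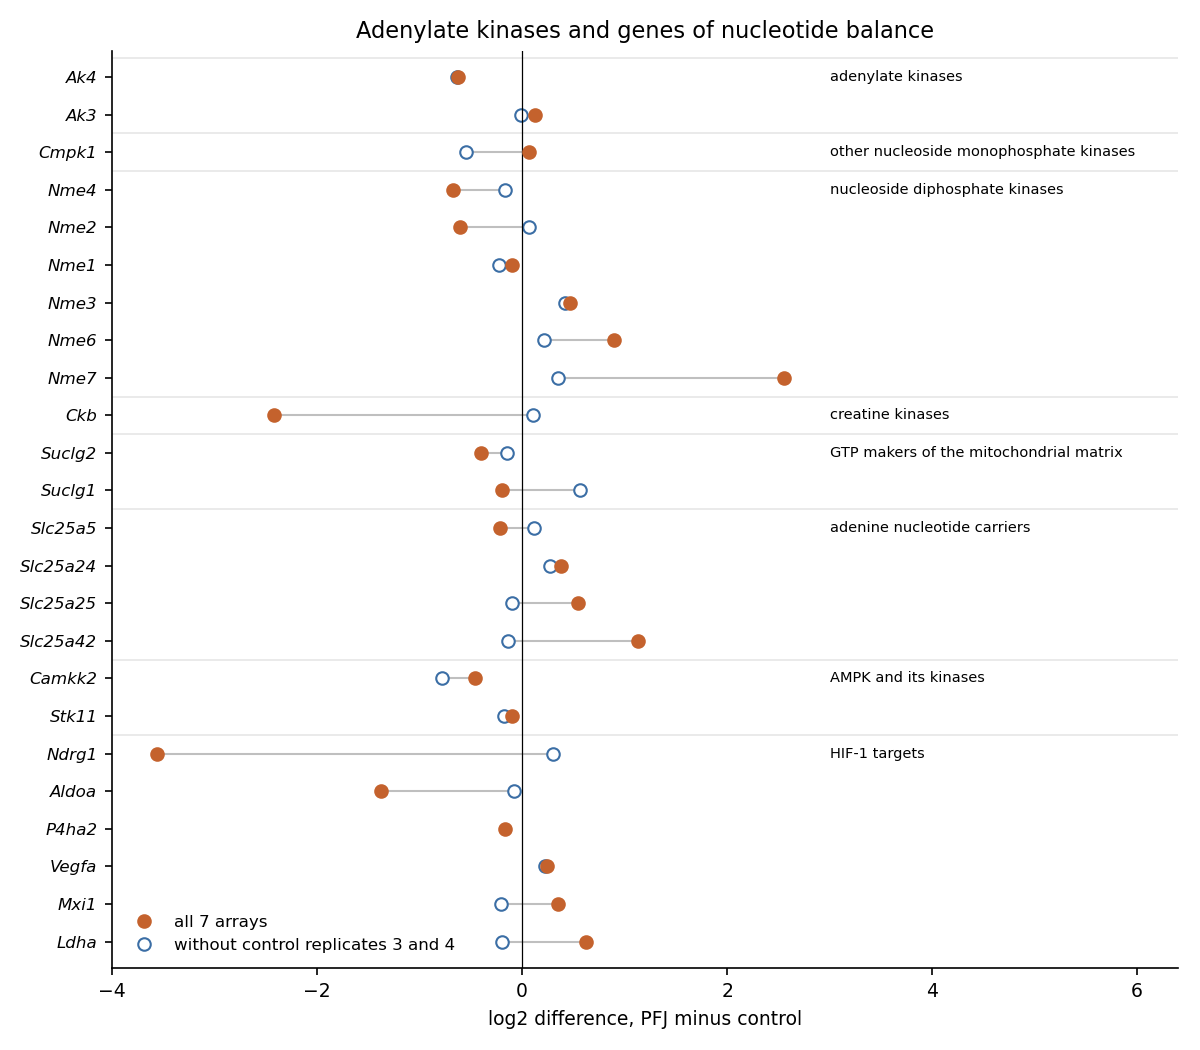
Log2 difference of PFJ minus control (x axis) for *Ak4*, *Ak3* and the 22 tested genes of nucleotide balance and HIF-1 targets (y axis, grouped by role), on all 7 arrays (filled) and without control replicates 3 and 4 (open; *P4ha2* was not tested there). *Ak4* is nearly the same in both, at -0.63 and -0.64, whereas *Ckb*, *Nme7* and *Ndrg1* lie far from 0 on all arrays alone.

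The genes most like *Ak4* across the 7 arrays were found by Pearson correlation of the log2 values, as a description of points that share the same arrays and normalisation. Of the tested genes, 6 had an r above 0.9. The 5 highest were *Fli1* (r = 0.939), an endothelial transcription factor, *Mier1* (r = 0.924), a chromatin regulator, *Prkaca* (r = 0.919), the catalytic subunit of protein kinase A, *Nudc* (r = 0.911), a chaperone of the dynein motor, and *Dok1* (r = 0.907), a docking protein of tyrosine kinases. All 5 had every PFJ array below every control array, which follows in part from their choice for likeness to a gene whose groups were apart. *Fli1* also passed the filter on detection mainly, and *Dok1* only, through the control arrays, where both were higher. *Fli1* averaged 6.42 ± 0.09 on the 3 PFJ arrays (SD) and 6.88 ± 0.12 on the 4 controls (SD), with detection on 1 of 3 PFJ arrays and 4 of 4 control arrays. *Dok1* was detected on no PFJ array, so its PFJ value is only an upper bound. *Prkaca* was at 12.95 ± 0.19 on the 3 PFJ arrays (SD) and 13.27 ± 0.04 on the 4 controls (SD), a log2 difference of -0.32 on all arrays and without control replicates 3 and 4. The 5 correlations were 0.888 to 0.992 over the 5 arrays other than control replicates 3 and 4. They include 0.976 for *Dok1*, which did not pass the filter on detection among these arrays. With the values of the authors, they ranged from 0.709 to 0.939.

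For *Ak3*, 88 genes had an r above 0.9. The highest were *Rab9* (r = 0.973), a small GTPase of endosomal transport, *Insig1* (r = 0.971), which holds sterol regulatory factors in the endoplasmic reticulum, and *Fdps* (r = 0.969), an enzyme of isoprenoid synthesis. *Insig1* was at 9.61 ± 0.50 on the 3 PFJ arrays (SD) and 8.56 ± 1.10 on the 4 controls (SD), and its groups overlapped. Without control replicates 3 and 4 the log2 differences were -0.03 for *Rab9*, 0.21 for *Insig1* and 0.06 for *Fdps*, and the correlations with *Ak3* were 0.836, 0.893 and 0.944 in that order. *Ak4* and *Ak3* themselves had an r of -0.437 over the 7 arrays.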

How the data were processed

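Total RNA was amplified to biotinylated cRNA and hybridised to Illumina MouseRef-8 BeadChips. The authors extracted intensity values (mean bead signals, not normalised) and a detection p-value per probe with BeadStudio and GenomeStudio (2011.1 in the submitters' notes), and deposited both, together with intensity values they had normalised by the rank invariant method, which are linear and partly negative. The platform annotation gave a single gene symbol for 23141 of the 25697 probes and several for 0, and 2556 probes are unnamed here.

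Here the signals were corrected and quantile normalised with neqc of limma 3.58.1 in R 4.3.3 (offset 16). Probes detected at p under 0.01 on at least 3 of 7 arrays were kept and for a gene with several such probes the one of highest mean was used. PFJ and control arrays were compared with limma's linear model and moderated statistics, with Benjamini-Hochberg adjustment over all tested genes. The fit was tested on simulated data with independent noise for each gene. These data lacked the split of control replicates 3 and 4 that many genes share, so that test does not cover it. The number of arrays limits the precision. The members, the lists of nucleotide balance, HIF-1 target, hepatocyte, kidney tubule, muscle and erythroid genes and the naming rule were chosen with earlier results of these data known. Named were all member probes, each list's gene of lowest p, list genes at an unadjusted p under 0.05, and the 5 (*Ak4*) or 3 (*Ak3*) genes of highest correlation. The interval level was 95%. *Ahsg*, *Alas2*, *Apoa1*, *Hba-a1*, *Hpx*, *Slc25a5*, *Slc4a1*, *Stk11*, *Suclg1*, *Ttr* and *Vegfa* were added after their values were seen. Alternatives were equal medians, an offset of 50, the authors' values with those under 10 set to 10, detection on all 7 arrays, no filter, a replicate block and leaving out arrays. The custom error model of the study was not run.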

Additional observations from a re-analysis of the deposited data

How the results depend on the processing

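The log2 difference of *Ak4* was negative in all 14 alternatives, from -0.747 with equal medians, where the median of all genes was -0.18, to -0.555 without PFJ replicate 2, and was -0.6818 to -0.555 with 1 array left out. The shift of *Ak4* against *Ak3* kept its direction throughout (-0.8376 to -0.6201). *Ak3* stayed short of the adjusted threshold in all 15 alternatives (adjusted p = 0.564 to 0.999 from limma). It was positive in each but the fit without control replicates 3 and 4, chosen after seeing the data (-0.01572); the cause was not tested. Its 0.123 was 0.005056 with equal medians, 0.4851 with probe B, also chosen after seeing the data, and 0.05358 to 0.1938 with 1 array left out (without control replicates 4 and 2, in that order). *Ak1* had a value only with no filter on detection, at background. The percentage of genes with a smaller spread than *Ak4* moved from 0.5088 to 3.401 with equal medians, 4.794 with the authors' values, 5.04 with no filter, 7.226 without control replicates 3 and 4, and 0.1648 to 1.408 with 1 array left out.

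At an adjusted p under 0.05, 0 genes passed, but 2, *Mup2* and *Mup6*, with equal medians, and 0 to 1 with 1 array left out (*Mup2* without PFJ replicate 1, *Cops4* without PFJ replicate 2). At an unadjusted p under 0.05, the 81 higher and 97 lower genes became 30 and 159 with equal medians, 52 and 60 with detection on all 7 arrays, 445 and 356 of 16110 genes with no filter, and 48 and 51 without control replicates 3 and 4. With the authors' values 44 were higher and 133 lower, and with 1 array left out the counts were 28 to 305 higher and 30 to 245 lower. Both counts moved by over 1.5 times without each control array in turn and without PFJ replicates 1 and 3, upwards for control replicates 1 (305 and 245) and 2 (263 and 223). The replicate numbers shared by the groups are not said to pair the samples. Same-numbered arrays deviated together at r = 0.0889, 0.216 and 0.126, and 2 of 3 PFJ arrays correlated best with their own number. With the replicate number as a block, the unadjusted threshold was passed by 33 higher and 32 lower genes, *Ak3* was at 0.05345 and *Ak4* at -0.618.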
